A study of Homo sapiens with 60 samples.

Results

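The data described here are 6 of 60 RNA-seq libraries from HepG2, an established human hepatocellular carcinoma cell line: 3 libraries of cells given a hot water extract of Schisandrae Fructus at the medium dose of 100 µg/mL and 3 of cells given the vehicle, dimethyl sulfoxide (DMSO). They were chosen by their sample titles. Cells were exposed for 24 h. The study ran the same protocol with 6 herbal extracts at 3 doses each and with a kinase inhibitor, which gave 20 groups of 3 libraries. Besides the 6 libraries, the groups used here are the same extract at 20 µg/mL (low) and 500 µg/mL (high) and a water extract of Liriopis seu Ophiopogonis Tuber at 100 µg/mL, each in 3 libraries. The vehicle is given as 0.1% DMSO in the sample labels and as 2% in the series' design text. Every group came from this line grown in the same medium, and no group carried a genetic change. HepG2 is a tumour line, so its levels are not those of normal hepatocytes. The labels do not say whether the replicates were separate cultures, and the p-values then measure only the spread between replicate libraries. That spread was estimated over all 60 libraries and not from the 6 alone.

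Schisandrae Fructus is the dried fruit of Schisandra, known for its lignans, and a water extract of it is a mixture rather than a compound. Metallothioneins are small cysteine-rich proteins that bind zinc and copper. Their genes are switched on by MTF1, a transcription factor that senses zinc and binds metal response elements in their promoters, together with the zinc exporter gene SLC30A1, while SLC39A10 and SLC39A4 code for zinc importers. Liver cells also hold strong programmes for glucose use, sterol synthesis and oxidant defence, each read here through a list of its genes.

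The 6 libraries held 27.05, 21.94 and 21.57 M assigned reads (vehicle; M, mega) and 22.9, 35.73 and 24.99 M (medium dose), and 16517 genes were tested. Levels are counts scaled to the library total after TMM (CPM), a scale for comparing 1 gene between libraries and not 2 genes with each other. Among the vehicle libraries, replicate 1 stood apart. The slope of its expression on the GC content of genes was -1.294 log2 units per unit of GC fraction, against 0.09 and 0.139 in the other vehicle libraries and -0.059 to 0.56 in the medium-dose libraries, and its mitochondrial mRNA share was 16.1% against 13% and 13.1%. The sample titles give every library the same batch label, BatchA. The sample codes put the vehicle in a set of its own and the Schisandrae and Liriopis libraries together in another. The labels do not state the meaning of these sets, so for the comparison with the vehicle the set and the extract cannot be told apart. For this reason the comparisons inside the shared set are given beside it. The hepatocyte and hepatoma markers that the label calls for were present: the 10 genes summed to 45153 to 49483 CPM at the medium dose and 46912 to 50656 CPM in the vehicle, with none at 0. COL1A2, DCN and LUM of 10 fibroblast markers, KDR, TEK, EMCN and CLEC4M of 10 endothelial markers, and PTPRC, CD3E and MS4A1 of 10 leukocyte markers were at 0 in these 6 libraries. The rest of these lists was not all at 0. The fibroblast list summed to 64.7 to 71.9 CPM in the vehicle and 64.1 to 69.9 CPM at the medium dose, mostly ACTA2. The endothelial list summed to 6.25 to 7.12 and 6.64 to 7.76 CPM, with PECAM1 highest. The leukocyte list summed to 977 to 1021 and 1123 to 1262 CPM, nearly all LYZ.

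Between 100 µg/mL and the vehicle a small part of the transcriptome differed, mostly by less than 1.5-fold. Metallothionein genes fell, the zinc importers SLC39A4 and SLC39A10 rose, IGFBP1 rose, and 12 of 23 genes of glucose uptake and glycolysis rose by 0.22 to 0.70 on the log2 scale. In total 295 genes were higher (1.79% of those tested) and 198 lower (1.2%) than in the vehicle at an adjusted p under 0.05, together 493 (2.98%), by the quasi-likelihood test of edgeR and Benjamini-Hochberg adjustment. Of these, 35 higher (0.212%) and 15 lower genes (0.0908%) changed by at least 1.5-fold, and 8 higher (0.0484%) and 10 lower genes (0.0605%) by at least 2-fold. In 492 of the 493 genes the 3 medium-dose libraries did not overlap the 3 vehicle libraries, as was the case for 23.4% of all tested genes. In bulk RNA, less of a transcript in each cell and fewer cells that hold it cannot be told apart.

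The number of called genes rested on single libraries. Without vehicle replicate 1 it was 122, of which 116 were among the 493. It was 180 without medium-dose replicate 2 (172 shared) and 109 without medium-dose replicate 3 (108 shared), and 410 to 521 without each of the other libraries. A set of 80 genes (0.484% of those tested), 54 higher and 26 lower, passed with all libraries and in each of the 6 fits that left 1 library out. The median GC content was 56.7% for the genes that rose and 47.6% for those that fell, against 50.1% for all tested genes, and 53.7% and 51.7% within the set of 80. With the GC slope of each library as a covariate, an alternative chosen after seeing the data, 537 genes were called and 359 of them were among the 493. The part of the GC slope in the result was otherwise not tested.

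**Figure D1:**
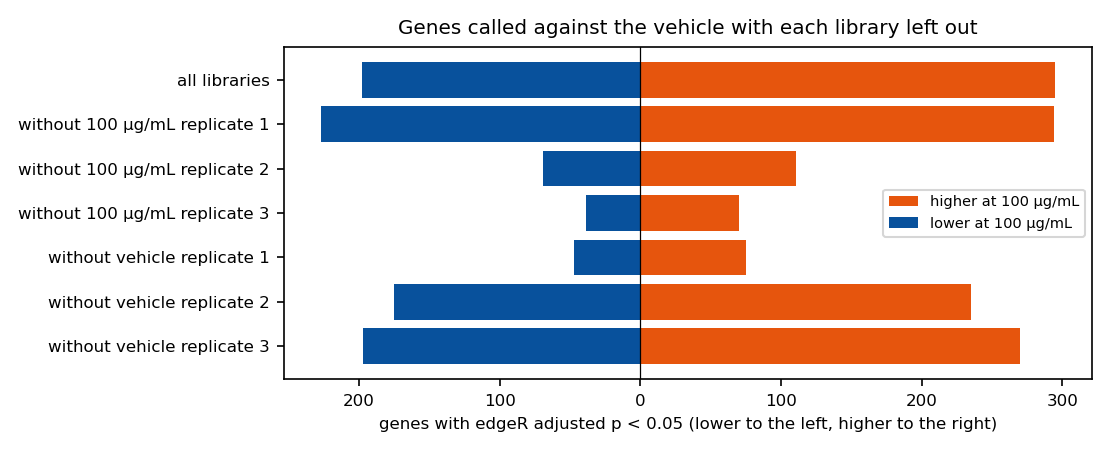
Number of genes called against the vehicle with all libraries and with each library left out (vertical axis), lower genes to the left and higher genes to the right. The bars without vehicle replicate 1 and without medium-dose replicate 2 or 3 stand at 122, 180 and 109 genes in all, against 493 with all libraries.

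Zinc handling held the largest falls. Of 16 metallothionein and zinc transport genes 14 were tested, 7 fell and 2 rose (1.2% of all tested genes fell and 1.79% rose), and the list's median log2 fold change was -0.57 against -0.00 for all tested genes. Of these, 6 falls and both rises held in every fit that left 1 library out. The 9 functional metallothionein genes of the MT1 and MT2 families, a tandem cluster on chromosome 16, summed to 421, 395 and 408 CPM in the vehicle libraries and to 145, 162 and 165 CPM at the medium dose. The groups were far apart, and the medium-dose libraries also lay close to each other. Because the deposited estimates divide reads among near-identical copies, the level of a single metallothionein gene is uncertain, whereas the sum does not depend on that division within the 9 genes.

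MT1G (chr16:56666731-56668065, minus strand, GRCh38) stood at 52.9, 55.1 and 56.2 CPM in the vehicle against 16.4, 18 and 17.6 CPM at the medium dose. It had the lowest fold change among genes of at least 5 CPM, -1.66 ± 0.22 on the log2 scale (SE; adjusted p = 2.5e-06). MT2A (chr16:56608199-56609497, plus strand), the family member with the highest CPM here, stood at 208, 185 and 196 CPM in the vehicle against 69.9, 77.8 and 79.7 CPM at the medium dose, a log2 fold change of -1.37 ± 0.23 (adjusted p = 1.6e-04). MT1X (chr16:56682424-56684196, plus strand) went from 34.4, 31.5 and 34.3 CPM to 15.3, 13.2 and 15.3 CPM, or -1.20 ± 0.14 (adjusted p = 4.0e-08). In these 3 genes the medium-dose libraries lay close together and well below each vehicle library. MT1E and MT1F fell by 1.32 and 1.39 on the log2 scale. MT1M, named after its values were seen because it is under 5 CPM, fell from 0.639, 1.08 and 0.623 CPM to 0.134, 0.0558 and 0.0807 CPM. MT1A, at 1.82 ± 0.0899 CPM in the vehicle against 1.03 ± 0.205 CPM at the medium dose (SD, n = 3), did not pass (adjusted p = 0.17).

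The bases before transcript starts are shown because metal response elements lie there. MT1X, MT2A, MT1E, MT1F, MT1G, MT1M, SLC30A1, SLC39A10 and SLC39A4 were looked up in the RefSeq promoter table (GRCh38.p14). Of these, MT1X, MT2A, SLC30A1 and SLC39A10 were matched. The 250 bases before the transcript start of that table were searched on both strands for the 7-base core of the element, TGCACNC or TGCGCNC. That start is not the end of the gene span given here, which covers every transcript of another annotation (GENCODE release 29): the MT2A and SLC39A10 windows lie inside the span of their gene, the MT1X window overlaps its first bases, and the SLC30A1 window lies before it with a gap. Capitals mark the matches, and no matches overlapped.
MT1X, chr16:56682220-56682469, plus strand: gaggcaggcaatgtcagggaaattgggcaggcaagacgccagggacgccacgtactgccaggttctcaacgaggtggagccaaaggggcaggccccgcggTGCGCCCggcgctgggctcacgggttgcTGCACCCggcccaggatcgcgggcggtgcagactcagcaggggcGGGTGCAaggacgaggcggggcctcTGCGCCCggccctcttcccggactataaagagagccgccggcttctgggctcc
MT2A, chr16:56608334-56608583, plus strand: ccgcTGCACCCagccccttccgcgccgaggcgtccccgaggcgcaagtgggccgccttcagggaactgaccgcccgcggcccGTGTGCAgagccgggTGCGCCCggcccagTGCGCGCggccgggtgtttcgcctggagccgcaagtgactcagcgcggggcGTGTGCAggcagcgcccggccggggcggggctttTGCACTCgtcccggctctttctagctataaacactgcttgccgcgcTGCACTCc
SLC30A1, chr1:211579162-211579411, minus strand: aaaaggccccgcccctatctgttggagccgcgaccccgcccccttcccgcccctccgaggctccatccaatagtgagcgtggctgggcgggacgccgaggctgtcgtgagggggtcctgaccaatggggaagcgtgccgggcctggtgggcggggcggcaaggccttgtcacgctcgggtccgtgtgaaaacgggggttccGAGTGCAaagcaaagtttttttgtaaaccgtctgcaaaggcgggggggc
The MT1X window held 4 matches (3 on the strand of the gene), the MT2A window 7 (5 on the strand of the gene) and the SLC30A1 window 1, on the other strand. Among 35116 promoter windows of that length, 24.8% held at least 1 match, 0.37% at least 4 and 0.0313% at least 7. Neither of the SLC39A10 windows held these letters. A match is a description of the letters and not a measured binding site.

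The zinc transporter genes moved in both directions. SLC39A10 (chr2:195575977-195737702), a plasma membrane zinc importer, stood at 14.5, 11 and 11.6 CPM in the vehicle against 18.5, 19 and 19.1 CPM at the medium dose, a rise of 0.60 ± 0.08 on the log2 scale (adjusted p = 4.3e-06). SLC39A4, another zinc importer, went from 76.4, 88.1 and 87.3 CPM to 122, 129 and 142 CPM (0.64 ± 0.08, adjusted p = 1.5e-07). Neither importer had a medium-dose library within the vehicle range. SLC30A1, the zinc exporter, fell from 91.5, 86 and 81.8 CPM to 71.9, 70.4 and 63.7 CPM (-0.33 ± 0.07, adjusted p = 0.0054), and its call was lost without vehicle replicate 1 or without medium-dose replicate 3 (-0.29 in both cases). MTF1 itself was level at 19.7 ± 0.808 CPM in the vehicle against 19.7 ± 1.09 CPM at the medium dose. SLC30A10, SLC39A8 and SLC39A14 did not pass either.

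**Figure D2:**
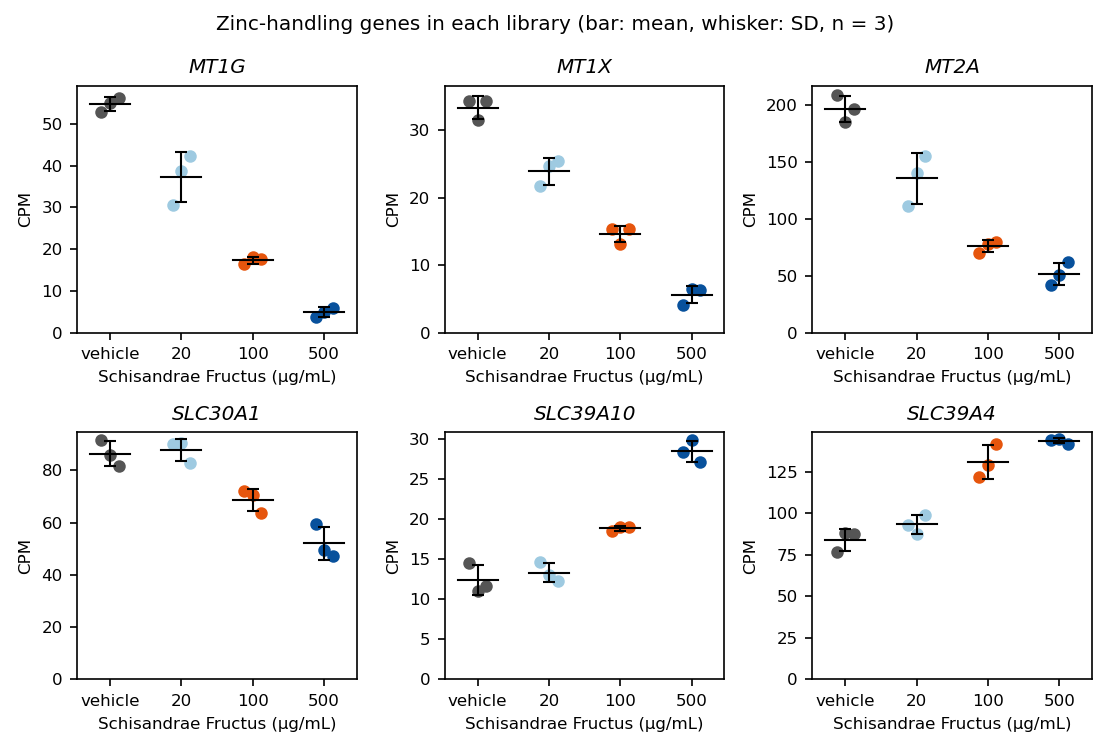
CPM of 6 zinc-handling genes in each library of the vehicle and of Schisandrae Fructus at 20, 100 and 500 µg/mL (points; bar, mean; whisker, SD; n = 3). MT1G stands at 16.4 to 18 CPM at 100 µg/mL against 52.9 to 56.2 CPM in the vehicle, and no gene of the zinc list passed between the vehicle and 20 µg/mL.

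Between the vehicle and 20 µg/mL no gene of the zinc list passed edgeR's test, with MT1G at -0.56 ± 0.21 (adjusted p = 0.37) and MT1X at -0.48 ± 0.13 (adjusted p = 0.14). The zinc genes also differed within the shared code set. The metallothionein sum was 238, 300 and 316 CPM at 20 µg/mL, and 409, 314 and 325 CPM under Liriopis at 100 µg/mL, so the 145 to 165 CPM of the medium dose lay below every library of both. At 500 µg/mL it was 65, 80 and 93.5 CPM. Of the 14 tested genes of the list, 5 were lower and 2 higher at the medium than at the low dose, in a comparison that called 42 genes (0.254%), and 6 were lower and 2 higher than under Liriopis, in a comparison that called 46 (0.279%). MT1G differed from the low dose by -1.10 ± 0.23 (adjusted p = 0.01) and from Liriopis by -1.42 ± 0.23 (adjusted p = 1.5e-04). SLC39A10 was 0.50 ± 0.08 above the low dose (adjusted p = 4.5e-04) and 0.68 ± 0.08 above Liriopis (adjusted p = 1.7e-06). From 100 to 500 µg/mL, 6 further falls and 1 further rise passed in the list, in a comparison that called 1045 genes (6.33%; 581 higher, 3.52%, and 464 lower, 2.81%). MT1G fell by another 1.85 ± 0.28 and SLC39A10 rose by another 0.59 ± 0.08, whereas MT2A (-0.57 ± 0.24, adjusted p = 0.18) and SLC39A4 (0.14 ± 0.08, adjusted p = 0.37) did not pass at that step. These comparisons share the medium-dose libraries with each other and with the comparison with the vehicle, so they are not independent of it.

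IGFBP1, a secreted protein that binds insulin-like growth factors and whose gene is repressed by insulin, had the largest rise among genes of at least 5 CPM. It stood at 22.1, 22.4 and 27.3 CPM in the vehicle against 59.8, 65.7 and 81.1 CPM at the medium dose, a log2 fold change of 1.53 ± 0.18 (adjusted p = 1.5e-07). At 20 µg/mL it stood at 36, 41.3 and 43.6 CPM, under Liriopis at 28.5, 36 and 38 CPM, and at 500 µg/mL at 201, 204 and 226 CPM. The medium-dose libraries were above each library of the 3 lower groups and below each library of the high dose. Against the low dose the difference was 0.77 ± 0.17 (adjusted p = 0.027) and against Liriopis 1.01 ± 0.18 (adjusted p = 7.2e-04). Of the 17 tested genes of the list of insulin-repressed FOXO targets 2 rose (against 1.79% of all tested genes) and none fell. The other was DEPP1 (0.35, adjusted p = 0.035), whose call held in only 1 of the 6 fits without 1 library. G6PC1, the glucose-releasing phosphatase of the same list, was at 1.66 ± 0.586 CPM in the vehicle against 2.38 ± 0.137 CPM at the medium dose and did not pass (adjusted p = 0.21).

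Of the 12 tested genes on the list of TGF-beta and YAP responsive genes 2 rose, beside 1.79% of all tested genes, and none fell. The collagen receptor subunit ITGA2 was among them (0.26, adjusted p = 0.025, held in 2 of 6 fits). CCN1 and CCN2, widely used readouts of YAP, had log2 fold changes of 0.13 and 0.19 against the vehicle and did not pass there. By edgeR's test CCN1 was 0.46 ± 0.10 above the low dose (adjusted p = 0.018). Its difference from Liriopis, 0.23 ± 0.10, did not pass (adjusted p = 0.82). From the medium to the high dose CCN1 rose by 0.56 ± 0.09 (adjusted p = 3.3e-05). Its mean was 11.5 CPM in the vehicle, 9.17 CPM at the low dose, 12.6 CPM at the medium dose and 18.5 CPM at the high dose.

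**Figure D3:**
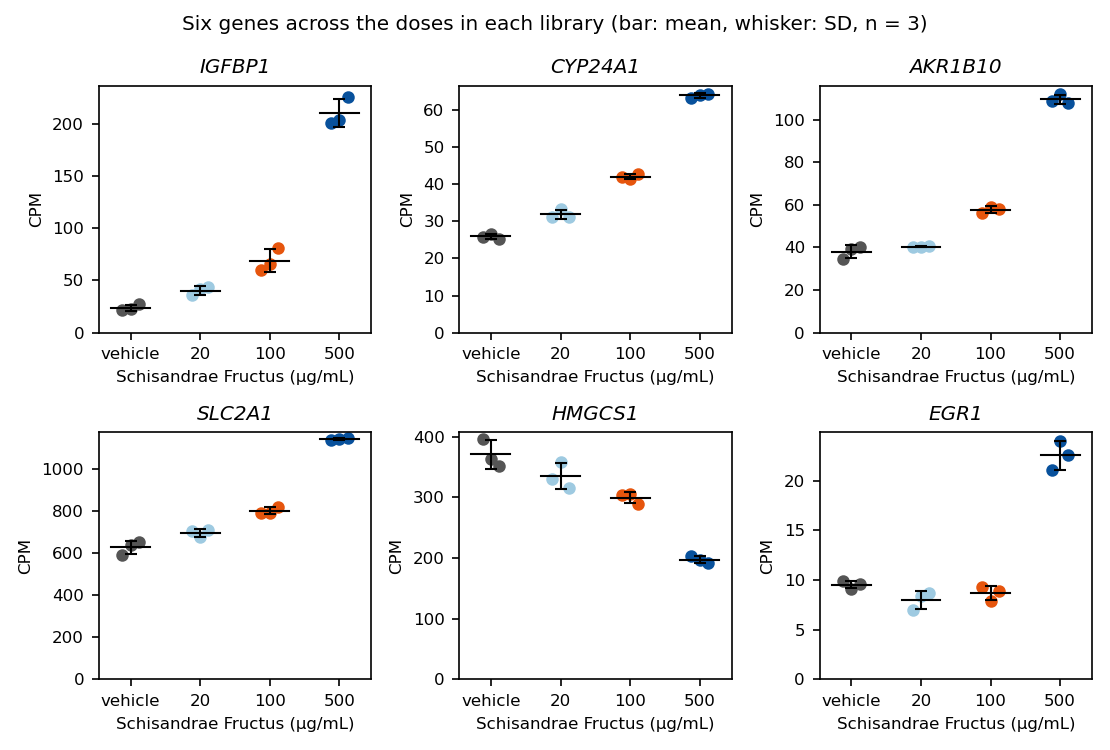
CPM of IGFBP1, CYP24A1, AKR1B10, SLC2A1, HMGCS1 and EGR1 in each library of the vehicle and of Schisandrae Fructus at 20, 100 and 500 µg/mL (points; bar, mean; whisker, SD; n = 3). IGFBP1 reaches 59.8 to 81.1 CPM at 100 µg/mL and 201 to 226 CPM at 500 µg/mL, while EGR1 at 100 µg/mL overlaps the vehicle and is higher at 500 µg/mL.

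Other large rises among genes of at least 5 CPM were TMEM141 (0.76), CCL20 (0.76), PFKFB4 (0.70), RNASET2 (0.70), CCDC183 (0.70), CYP24A1 (0.70), AJM1 (0.69), RAB43 (0.69), TMCC1 (0.69) and ZC3H12D (0.68), all as log2 fold changes. CYP24A1, the enzyme that breaks down active vitamin D, was at 25.8, 26.7 and 25.3 CPM in the vehicle against 42, 41.4 and 42.8 CPM at the medium dose (adjusted p = 6.2e-10). RNASET2, an acid ribonuclease, was at 26.3, 25.5 and 27.3 CPM and then 39.4, 43.5 and 45.4 CPM (adjusted p = 1.6e-05). Both also passed against the low dose (0.40 and 0.50) and against Liriopis (0.42 and 0.56). By contrast, PFKFB4, a regulator of glycolytic flux, was no further from the low dose than 0.03 ± 0.13 and from Liriopis than 0.16 ± 0.13. Its low-dose libraries stood at 23.5, 23.6 and 24.1 CPM and its medium-dose libraries at 22.5, 26.1 and 24.1 CPM, both above the vehicle at 14.2, 13.8 and 16.8 CPM. RAB43 showed the same order, 0.10 ± 0.19 from the low dose and 0.05 ± 0.19 from Liriopis, and its call against the vehicle (adjusted p = 0.047) held in 1 of the 6 fits without 1 library. RAB43 overlaps the readthrough gene ISY1-RAB43 on its strand, which was at 33 CPM in the vehicle against 24.3 CPM at the medium dose. AJM1 and CCDC183 also overlap other genes on their strand, so their reads may be divided with those. For AJM1, CCDC183, TMEM141, CCL20 and ZC3H12D the difference from Liriopis was 0.19 to 0.50 and none passed, while against the low dose TMEM141 alone did (0.49, adjusted p = 0.037).

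Apart from the metallothioneins, the falls among genes of at least 5 CPM were smaller. SLC6A12, a betaine and GABA transporter that takes up osmolytes, stood at 6.99, 7.16 and 6.23 CPM in the vehicle against 4.87, 4.05 and 4.88 CPM at the medium dose (-0.58 ± 0.09, adjusted p = 5.3e-05). It was as far below the low dose (-0.60 ± 0.09) and Liriopis (-0.60 ± 0.09), and 4.48, 4.62 and 5.04 CPM at 500 µg/mL, a step of 0.05 ± 0.09 from the medium dose that did not pass. PRR36, STK33, ZBED3, ERMAP and EFCAB2 fell by 0.41 to 0.51 on the log2 scale against the vehicle. None of these 5 genes passed against the low dose or against Liriopis, and of the 5 ZBED3 alone held its call in every fit that left 1 library out.

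**Figure D4:**
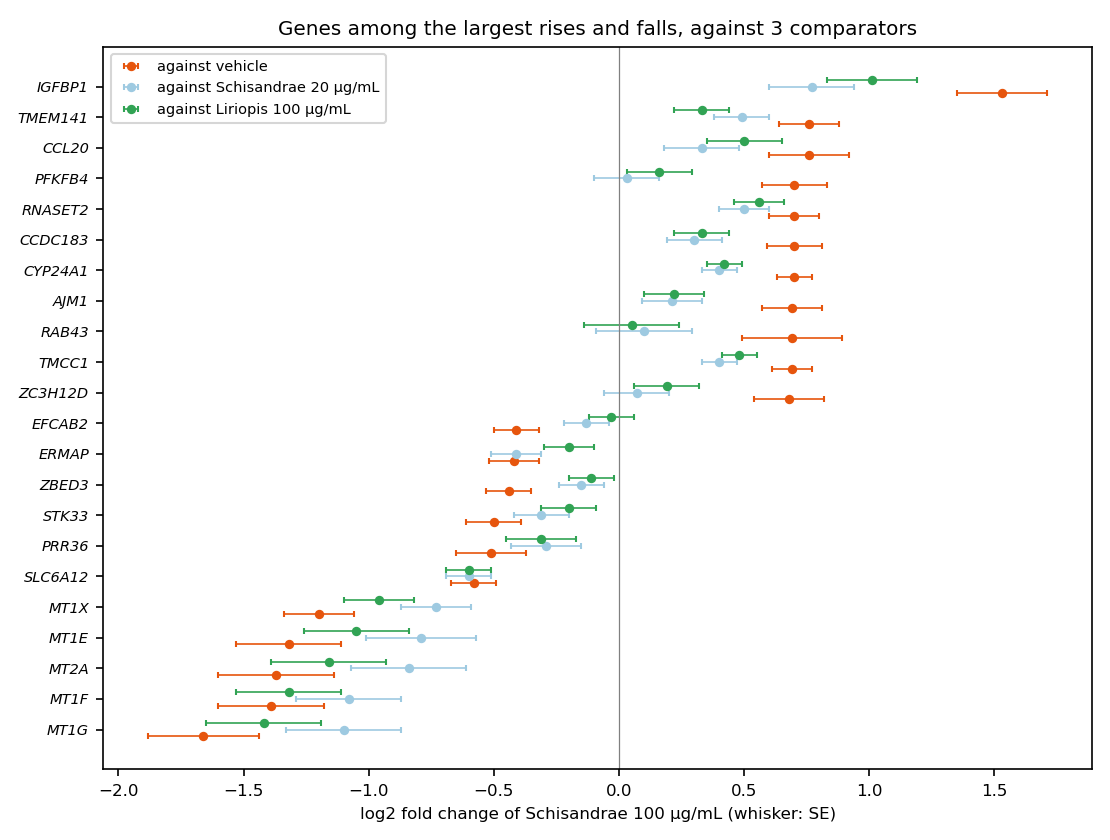
Log2 fold change of Schisandrae Fructus at 100 µg/mL for genes among the 12 largest rises and 12 largest falls of at least 5 CPM (rows), against the vehicle, against the same extract at 20 µg/mL and against Liriopis at 100 µg/mL (points; whisker, SE). For MT1G the 3 values are -1.66, -1.10 and -1.42, whereas for PFKFB4 they are 0.70, 0.03 and 0.16.

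Below 5 CPM, and named after their values were seen, LCN15 and HAVCR1 had larger fold changes than IGFBP1 and passed in every fit. LCN15, a lipocalin, was at 0.639, 0.8 and 1.2 CPM in the vehicle against 2.5, 2.76 and 3.83 CPM at the medium dose (1.80 ± 0.26, adjusted p = 9.9e-06). HAVCR1, a phosphatidylserine receptor known as a marker of kidney injury, was at 0.719, 0.424 and 0.911 CPM and then 1.79, 2.35 and 2.38 CPM (1.67 ± 0.26, adjusted p = 4.4e-05). LCN15 also differed from the low dose (1.17 ± 0.24, adjusted p = 0.0099), while HAVCR1 did not pass there (0.69 ± 0.23, adjusted p = 0.3).

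Glucose uptake and glycolysis was the list with the most rises: 12 of 23 tested genes rose, against 1.79% of all tested genes, and none fell, with a median log2 fold change of 0.26. Without vehicle replicate 1 there were 9 rises, and 7 genes passed in every fit that left 1 library out: SLC2A1, GPI, PFKFB4, ALDOA, PGK1, PGAM1 and ENO1. SLC2A1 (chr1:42925375-42959176), the glucose transporter GLUT1, stood at 592, 636 and 651 CPM in the vehicle against 791, 791 and 819 CPM at the medium dose (0.35 ± 0.04, adjusted p = 4.1e-08). The groups were separate, and the rise was 1.28-fold. GPI, the isomerase of the next step after glucose phosphorylation, went from 307 ± 11 to 369 ± 7.49 CPM (0.26 ± 0.04) and the mutase PGAM1 from 307 ± 12.5 to 383 ± 26.1 CPM (0.32 ± 0.05), both means ± SD of 3 libraries. The glycolytic enzymes ALDOA, PGK1 and ENO1 rose by 0.33, 0.32 and 0.34. HK2, SLC2A3, ENO2, LDHA and the lactate exporter SLC16A3 also rose, by 0.22 to 0.52, but each lost its call in at least 1 fit. GAPDH, TPI1 and PKM did not pass, at 0.12, 0.17 and 0.08. Against the low dose and against Liriopis 1 gene of this list passed edgeR's test in each case, with list medians of 0.13 and 0.14. That gene was SLC2A1 in both, at 0.20 ± 0.04 (adjusted p = 0.0061) and 0.24 ± 0.04 (adjusted p = 3.2e-04). DESeq2 called 3 and 4 genes of the list in these comparisons. At an unadjusted p under 0.05 there were 10 and 9, beside 1419 and 899 of all 16517 tested genes. From 100 to 500 µg/mL 11 genes of the list rose, against 3.52% of all tested genes.

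Of 20 hypoxia targets outside glycolysis 7 rose, against 1.79% of all tested genes, and none fell, with a median of 0.30, and without vehicle replicate 1 there were 4. PDK1, a kinase that inhibits pyruvate dehydrogenase in the mitochondria, stood at 24.9, 21.8 and 23.9 CPM in the vehicle against 33.7, 35.4 and 36.5 CPM at the medium dose (0.58 ± 0.08, adjusted p = 6.8e-06). The histone demethylase KDM3A and the collagen hydroxylase P4HA1 rose by 0.35 ± 0.06 and 0.28 ± 0.06. These 3 genes passed in every fit. BNIP3, P4HA2, BHLHE40 and EPO rose by 0.26 to 0.46 but lost the call in at least 1 fit. VEGFA, ADM and CA9, other widely used readouts of hypoxia, did not pass, at 0.13, -0.04 and 0.29. Against Liriopis P4HA1 passed (0.28 ± 0.06, adjusted p = 0.0059), and against the low dose no gene of this list did by edgeR or by DESeq2. There 4 had an unadjusted p under 0.05, beside 1419 of all 16517 tested genes. Against Liriopis 8 of the list did, beside 899 of all tested genes, and DESeq2 called 2.

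Targets of NRF2, the transcription factor of oxidant defence, gave 6 rises among 26 genes, against 1.79% of all tested genes, and no fall. The median was 0.10, and 3 genes passed in every fit. The largest was AKR1B10, an aldo-keto reductase that reduces reactive aldehydes. It stood at 34.6, 39.3 and 40.3 CPM in the vehicle libraries, 40.3, 40.1 and 40.6 CPM at the low dose, 56.2, 59.2 and 57.9 CPM at the medium dose and 109, 112 and 108 CPM at the high dose. The low-dose libraries were thus at the upper end of the vehicle range and the medium-dose libraries clear of both. Its log2 differences were 0.60 ± 0.05 from the vehicle (adjusted p = 9.8e-11), 0.52 ± 0.05 from the low dose (adjusted p = 2.1e-08) and 0.50 ± 0.05 from Liriopis (adjusted p = 7.1e-08). Because other aldo-keto reductase genes are close in sequence, its level is uncertain where reads were divided among them. The autophagy receptor SQSTM1 and the efflux pump ABCC2 rose by 0.28 ± 0.04 and 0.30 ± 0.04. SQSTM1 also passed against the low dose (0.28 ± 0.04, adjusted p = 4.7e-05) and against Liriopis (0.21 ± 0.04, adjusted p = 0.0029). ABCC2 passed against Liriopis (0.23 ± 0.04, adjusted p = 8.9e-04) but not against the low dose (0.10 ± 0.04, adjusted p = 0.45). NQO1, the quinone reductase, rose from 340 ± 6.56 to 391 ± 14.1 CPM (0.20 ± 0.04, adjusted p = 0.0063), a call that held in 3 of 6 fits. SRXN1 and SLC7A11 rose by 0.21 and 0.32, in calls that held in 2 and 0 of 6 fits. SRXN1 also passed against the low dose (0.25 ± 0.05, adjusted p = 0.011) but not against Liriopis (0.17 ± 0.05, adjusted p = 0.25). HMOX1, GCLM, GCLC and TXNRD1 did not pass, at -0.05, 0.14, 0.01 and 0.07. SQSTM1 overlaps MGAT4B on the other strand, which was at 107 CPM in the vehicle against 141 CPM at the medium dose, and whether the counting used strand is not given in the sources used here.

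Sterol synthesis enzymes differed from the vehicle by small amounts, mostly downward. Of 21 enzymes 9 had an unadjusted p under 0.05, beside 2777 of all 16517 tested genes, and DESeq2 called 3. By edgeR 2 fell, against 1.2% of all tested genes, and none rose. The median was -0.07, and 17 of the 21 had a negative fold change. HMGCS1, which makes the precursor of mevalonate, was at 397, 364 and 352 CPM in the vehicle against 304, 306 and 289 CPM at the medium dose (-0.31 ± 0.05, adjusted p = 2.6e-04). The squalene oxidase gene SQLE was the other, at 372 ± 3.1 and 328 ± 8.96 CPM (-0.18 ± 0.04, adjusted p = 0.0032), and its call was lost without medium-dose replicate 3. No gene of the list passed edgeR's test against the low dose or against Liriopis, and DESeq2 called 1 in each. At an unadjusted p under 0.05 there were 7 in each, beside 1419 and 899 of all 16517 tested genes. From 100 to 500 µg/mL 18 of the 21 fell, against 2.81% of all tested genes, with a median of -0.44. HMGCS1 fell by another 0.61 ± 0.05 at that step.

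Fatty acid synthesis gave 2 falls (1.2% of all tested genes fell) and no rise among 17 tested genes, with a median of -0.07. ACSS2, which turns acetate into acetyl-CoA, was at 123, 133 and 130 CPM in the vehicle against 113, 113 and 114 CPM at the medium dose (-0.18 ± 0.04, adjusted p = 0.0023), and it was further below the low dose (-0.26 ± 0.04, adjusted p = 4.7e-05) and Liriopis (-0.24 ± 0.04, adjusted p = 1.2e-04). Its low-dose libraries, at 129, 135 and 144 CPM, reached above the vehicle. ELOVL6, a fatty acid elongase, fell by 0.18 in a call that held in 3 of 6 fits. FASN was at 2892 ± 168 CPM in the vehicle against 2878 ± 42.1 CPM at the medium dose. From 100 to 500 µg/mL 10 genes of the list fell, against 2.81% of all tested genes.

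**Figure D5:**
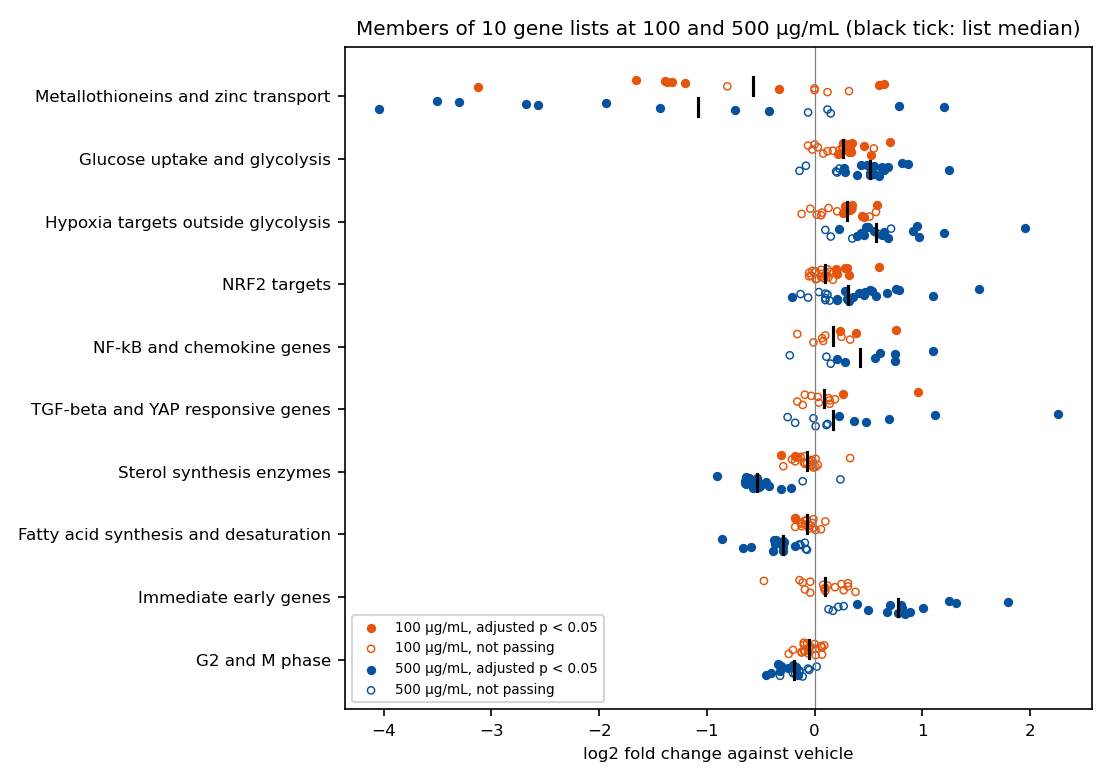
Log2 fold change against the vehicle of each tested member of 10 gene lists at 100 and 500 µg/mL (filled points pass at adjusted p under 0.05; open points do not; black tick, list median). At 100 µg/mL glycolysis has 12 filled points and sterol synthesis 2 of 21, and the immediate early genes have none.

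Of 17 tested immediate early genes, which answer growth and stress signals within minutes, none passed edgeR's test at the medium dose. The median was 0.10, and DESeq2 called 1. At an unadjusted p under 0.05 there were 4, beside 2777 of all 16517 tested genes. From 100 to 500 µg/mL 12 rose, against 3.52% of all tested genes. EGR1 stood at 9.91, 9.13 and 9.54 CPM in the vehicle libraries, 9.26, 7.9 and 8.88 CPM at the medium dose, overlapping it, and 21.1, 24 and 22.6 CPM at the high dose. The step from 100 to 500 µg/mL was 1.39 ± 0.15 (adjusted p = 1.1e-09). CYP1A1, the drug oxidase driven by the aryl hydrocarbon receptor, was at 7.15, 7.2 and 7.24 CPM in the vehicle libraries, 5.54, 6.38 and 7.93 CPM at the low dose, 8.5, 8.88 and 9.12 CPM at the medium dose and 19.2, 19.6 and 17.9 CPM at the high dose. The medium-dose libraries lay above each library of the vehicle and the low dose. The difference from the vehicle did not pass (0.30 ± 0.10, adjusted p = 0.091), while those from the low dose (0.42 ± 0.10, adjusted p = 0.048) and from Liriopis (0.51 ± 0.10, adjusted p = 0.0046) did. CYP3A4, an oxidase driven by PXR, was under 0.3 CPM in every library of both groups.

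In the NF-kB and chemokine list 3 of 10 tested genes rose, against 1.79% of all tested genes. The adhesion molecule ICAM1 went from 105, 117 and 112 CPM to 126, 133 and 134 CPM (0.24 ± 0.04, adjusted p = 3.4e-04) and also passed against the low dose (0.20) and Liriopis (0.22). The chemokine CCL20 stood at 12, 10.9 and 11 CPM in the vehicle against 14.3, 20.2 and 22.6 CPM at the medium dose, a wide spread, and its call was lost without medium-dose replicate 3. RELB passed narrowly (0.38, adjusted p = 0.049, held in 1 of 6 fits), and NFKBIA and CXCL8 did not pass, at -0.16 and -0.01.

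None of the 20 G2 and M phase genes or of the 21 DNA replication genes passed edgeR's test or DESeq2 between the medium dose and the vehicle. Their medians were -0.05 and 0.04. At an unadjusted p under 0.05 there were 2 and 4 genes, beside 2777 of all 16517 tested genes. Within the shared code set the DNA replication gene RRM2 was higher at the medium dose by edgeR. It was 0.16 ± 0.03 above the low dose (adjusted p = 0.017) and 0.14 ± 0.03 above Liriopis (adjusted p = 0.042). Of all tested genes 0.157% and 0.188% rose in these comparisons. No G2 and M phase gene passed there. PLK1, a mitotic kinase, was at 336 ± 1.7 CPM in the vehicle against 314 ± 11.2 CPM at the medium dose (adjusted p = 0.38). Endoplasmic reticulum chaperones, heat shock chaperones, PXR and CAR targets, bile acid genes, acute phase genes and iron handling genes gave no call by edgeR either, with 1 to 3 genes in each list at an unadjusted p under 0.05, and DESeq2 called 1 of the iron handling genes and none of the others. The cell-cycle inhibitor CDKN1A, a p53 target, did not pass (-0.16, adjusted p = 0.29). In its list of 15 only the growth factor GDF15 rose (0.51, adjusted p = 0.041, held in 1 of 6 fits), against 1.79% of all tested genes. Among 20 plasma protein genes 1 rose and 1 fell, beside 1.79% and 1.2% of all tested genes. Transferrin (TF) rose by 0.23 ± 0.05, a call lost without medium-dose replicate 3. The fibrinogen chain FGG fell by 0.29 ± 0.06, a call lost without that library or without vehicle replicate 1. ALB, at 6656 ± 319 CPM in the vehicle against 7076 ± 260 CPM at the medium dose, and KNG1 did not pass. Of 16 ATF4 targets 3 rose, beside 1.79% of all tested genes (MTHFD2, STC2 and TRIB3, by 0.20 to 0.23), and none of them passed in every fit. Of 11 beta-catenin targets 3 fell, against 1.2% of all tested genes. The glutamine synthetase gene GLUL fell by 0.18 ± 0.03 and passed in every fit, while NKD1 (0.17) and RNF43 (0.15) fell in calls that held in 2 and 1 of the 6 fits that left out 1 library. PLIN2, the lipid droplet coat protein, rose from 106, 108 and 107 CPM to 123, 134 and 138 CPM (0.30 ± 0.05, adjusted p = 4.5e-04) and ACADVL by 0.25 in the list of PPARA targets and fatty acid oxidation, where 2 of 16 rose, beside the same 1.79%. The call of ACADVL was lost without vehicle replicate 1 or medium-dose replicate 3.

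Other lists gave 1 to 3 calls each, beside 1.79% of all tested genes that rose and 1.2% that fell. None of these list calls held in every fit. In the control of sterol uptake (15 tested genes) NPC1, the sterol exporter of lysosomes, rose by 0.21. The retention protein INSIG2 rose by 0.29, and TMEM97 fell by 0.24. ABCG5, a sterol efflux pump, rose by 0.20 (1 of 8 tested genes of its list) and the lysosomal galactosidase GLA by 0.26 (1 of 20). The nucleolar protein BOP1 rose by 0.36 and the nucleolar protein WDR43 fell by 0.19, in a list of 20. The respiratory chain subunit UQCRC1 rose by 0.17 (1 of 20). ARNT, the partner of the aryl hydrocarbon receptor, fell by 0.20 (1 of 6) and the transcription factor NR2F2 by 0.34 (1 of 13). The 13 mitochondrially encoded mRNAs all had negative fold changes, -0.66 to -0.27 with a median of -0.45, but none passed by edgeR or DESeq2. Beside 2777 of all 16517 tested genes, 7 of these mRNAs had an unadjusted p under 0.05. Their share of assigned reads was 16.1%, 13% and 13.1% in the vehicle and 11.9%, 10% and 10.9% at the medium dose. Against the low dose and Liriopis their medians were -0.17 and -0.04.

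The step from 20 to 500 µg/mL of the same extract used none of the 6 libraries of the comparison with the vehicle, and 858 genes were higher (5.19%) and 792 lower (4.8%) at the high dose, 1650 in all (9.99%). Of the 295 genes that rose at the medium dose 140 (47.5%) were among the former, which is 16.3% of those 858, and 2 were among the latter. Of the 198 that fell 86 (43.4%) were lower at the high dose, which is 10.9% of those 792, and none was higher. In the set of 80 the shares were 46 of 54 rises (85.2%) and 20 of 26 falls (76.9%), or 5.36% and 2.53% of the high-dose lists, and none went the opposite way. At the low dose 9 genes were higher (0.0545%) and 3 lower (0.0182%) than in the vehicle, 12 in all (0.0727%). The high dose differed from the vehicle in 2585 genes (15.7%; 1387 higher, 8.4%, and 1198 lower, 7.25%), so that the 493 genes of the medium dose lay between the 12 and the 2585.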

How the data were processed

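Total RNA of HepG2 cells was sequenced in 60 libraries, 3 for each of 20 groups. The deposited table holds expected counts per gene, made by the authors. The submitters' processing notes name STAR 2.7.3a, RSEM 1.3.3, Trim Galore 0.6.5 and FastQC 0.11.9, and the build hg38. Of the values, 10.3% were not whole. The table has 60675 genes, 57055 with a symbol in the gene annotation used for names and positions (GENCODE release 29). Whether the counting used strand is not given in the sources used here.

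Expected counts were rounded, filtered with filterByExpr by group (16517 genes left; the others held 0.0534% of counts), TMM-scaled (factors 0.92 to 1.08) and tested with edgeR 4.0.16 (glmQLFit and glmQLFTest, R 4.3.3) in 1 fit over all 60 libraries with a term for each group, 2-sided, with Benjamini-Hochberg adjustment over all tested genes and a threshold of 0.05. Fold changes are given with their standard errors. Library totals ran from 20.21 to 36.41 M reads. Data were simulated for the medium dose against the vehicle (16350 genes) at the real library depths. Their spread was the estimate over all 60 libraries, and no difference in GC slope was built in. The changed genes were drawn from those with a mean of at least 5 CPM. Of them, the test called 60% of genes changed 1.25-fold, 88% of those changed 1.5-fold and 100% of those changed 2-fold or 4-fold. It also called 17 unchanged genes, beside 30, 44, 50 and 50 changed genes at these fold changes in turn.

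Named genes were the 12 largest rises and 12 largest falls among protein-coding genes that passed, reached 5 CPM in a group mean and did not overlap between the groups; up to 3 passing members of each of 31 lists with the smallest p; and 20 fixed genes, 75 in all, of which some are not reported here. Genes outside this rule are said to be chosen after their values were seen, or are named as members of a list. The members, lists and fixed genes were chosen with earlier results of these data known. Alternatives were DESeq2 1.42.0 with its own size factors, edgeR with relative log expression scaling, no filter and a strict filter, the 6 libraries of a comparison alone, a replicate block, leaving out each library, and the GC slope of each library as a covariate, which was added after seeing the data. Promoter letters came from the RefSeq table of GRCh38.p14. No replicate pair matched within sampling noise.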

Additional observations from a re-analysis of the deposited data

How the results depend on the processing

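Calls against the vehicle numbered 493 with all libraries, and 493, 568, 676, 440 and 537 with relative log expression scaling, a strict filter, DESeq2, the 6 libraries alone and the GC covariate. The count rose to 752 without a filter on low counts. Leaving out each library in turn gave 109 to 521, the lowest without medium-dose replicate 3. The replicate block gave 841, of which 388 were among the 493, but the numbers were not taken to pair the libraries, since same-numbered libraries correlated at -0.01 to 0.09 over the 5 comparisons (0.05, 0.01 and 0.00 here). As a hint from the data, every library correlated best with its own number for medium against low and high against low dose, and 1 or 2 of 3 in the other comparisons. Against the low dose the count was 42, with 19 from the 6 libraries alone, 66 by DESeq2, 64 with the GC covariate, 263 without a filter, 679 with the block and 17 to 39 without 1 library. It fell to 21, 17, 18 and 17 without low-dose replicate 1, low-dose replicate 2, medium-dose replicate 2 and medium-dose replicate 3. From the medium to the high dose it was 1045, with 1963 under the block and 679 to 823 without 1 library, the lowest values without high-dose replicate 1 (679) and medium-dose replicate 3 (686). Against Liriopis it was 46, with 78 under the GC covariate, 164 without a filter, 73 with the block and 29 to 41 without 1 library, 29 without medium-dose replicate 3. High against low dose gave 1650, and 1233 to 1335 without 1 library. None of the 75 named genes reversed under any of these alternatives. Among them 25 lost their call without vehicle replicate 1, 24 without medium-dose replicate 2 and 28 without medium-dose replicate 3. With the 6 libraries alone 16 lost it, and without a filter 16 did. The 75 include fixed genes that had no call to lose. In the simulated data, changes of 1.5-fold or less were not all called. Apart from the libraries and genes left out, the cause was not tested.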

Other observations

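The genes in this paragraph were chosen after their values were seen, from the 80 that passed in every fit that left 1 library out. NEDD9, a scaffold protein of cell adhesion, stood at 107, 105 and 110 CPM in the vehicle and 141, 159 and 153 CPM at the medium dose (0.49 ± 0.05, adjusted p = 1.8e-09), and differed from the low dose by 0.29 and from Liriopis by 0.37. Follistatin (FST), a secreted binder of activin, went from 39.7, 38.4 and 41.2 CPM to 53, 55.5 and 58.6 CPM (0.49 ± 0.06, adjusted p = 8.2e-08), with differences of 0.27 and 0.34. In both genes the medium-dose libraries were above each vehicle library. APOL1, a circulating apolipoprotein, rose by 0.51 ± 0.06 (adjusted p = 4.5e-07), the galectin gene LGALS3 by 0.48 ± 0.10 (adjusted p = 0.002), and the creatine transporter gene SLC6A8 by 0.48 ± 0.08 (adjusted p = 2.6e-04). CEMIP, which takes part in hyaluronan breakdown, rose by 0.46 ± 0.09 (adjusted p = 0.0013) and by another 0.85 from 100 to 500 µg/mL.

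LYZ, the lysozyme gene, rose from 929, 972 and 945 CPM to 1071, 1140 and 1214 CPM (0.27 ± 0.05, adjusted p = 1.8e-04) and by another 0.51 ± 0.05 from 100 to 500 µg/mL. It is on the list of 10 leukocyte markers, whose summed level was 977 to 1021 CPM in the vehicle and 1123 to 1262 CPM at the medium dose, nearly all of it LYZ. PTPRC, the marker shared by leukocytes, was at 0 in every library of both groups.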
